A study of Mus musculus with 18 samples.

Results

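The α-globin genes and their enhancers lie inside mouse chromosome 11, nearer to its upstream than to its downstream end. They are within a sub-TAD, a stretch of chromatin whose contacts are mostly internal. Their contacts with the rest of the chromosome were described here on every DpnII fragment of chr11 (mm9) with a midpoint below 31150000 or above 33200000, which leaves out the locus and about 1 Mb on either side. By this rule 290571 of the 295450 DpnII fragments of the chromosome were members, and the other 4879 lay between both boundaries. The members were grouped into 117 bins of 1 Mb, 28 upstream and 89 downstream. Of the members, 135508 had at least 1 count in any sample, and 398 to 54908 had one in a single sample, so single fragments were too sparse to compare and bins, windows of 100 kb and gene clusters were used.

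NG Capture-C counts the ligation products between a chosen DpnII fragment, the viewpoint, and all other fragments. The 18 samples were Ter119+ erythroid cells from spleens of adult C57BL/6 mice, in which phenylhydrazine, a drug that lyses red blood cells, had expanded the erythroid precursors. Experiment 1 compared WT with ∆44/48 mice, which lack the CTCF binding sequences at HS+44 and HS+48 downstream of the α-globin genes, from the CTCF site HS-38 at the upstream boundary, the enhancers R1 and R2 and the *Hba-a1* and *Hba-a2* promoters. Experiment 2 compared WT with ∆θ1, ∆θ2 and ∆θ1/θ2 mice, which lack the CTCF sites beside one or both θ-globin genes, from the *Hba-a1* and *Hba-a2* promoters. All deletions were made by CRISPR-Cas9 and were homozygous, and each of the 6 groups held 3 biological replicates. The 3 comparisons of experiment 2 share the same WT samples.

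Along one chromosome, contacts become rarer with distance, because distant segments of the same fibre meet less often. On top of this fall, chromosomes are divided into gene-rich, transcribed stretches and gene-poor, silent stretches (A and B compartments), and each kind meets its own kind more often. In erythroid cells the α-globin locus is among the most active regions of the genome.

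Counts from *Hba-a1* and *Hba-a2*, which share 75.4 to 82.3% of their long-range fragments in experiment 1 and 68.7 to 84.5% in experiment 2, were summed as *Hba-a1/2*. The sum may hold the same molecule under both names. Of the fragments listed from both promoters in the WT samples of experiment 1, 69.2 to 70.3% had identical counts. *Hba-a1/2* had 2.19 long-range counts per fragment hit there and HS-38 1.47. All counts and p-values from *Hba-a1/2* carry this limit. The samples of experiment 1 held 345162 to 1120609 counts in total and those of experiment 2 held 8820 to 232346. Long-range counts from *Hba-a1/2* ran from 45706 to 56027 in the WT samples of experiment 1 and from 5657 to 16099 in those of experiment 2, but only from 660 to 1788 in ∆θ1. One ∆44/48 library, replicate 1, stood apart: it had 2.15 long-range counts per fragment hit from HS-38, against 1.45 to 1.49 in the other 5 libraries, and its 17690 long-range counts from *Hba-a1/2* were the fewest of its experiment. The results of ∆44/48 that it touches are therefore given with and without it.

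Reference sequence of a few fragments shows where long-range contacts fell in these data. The fragment over a coding exon of *Hnrnpab*, an RNA-binding protein gene, had the most counts in its bin, one of the 3 furthest above the distance curve. Also shown are the most contacted intron fragments of *Slc4a1*, which encodes band 3, the anion exchanger of the red cell membrane, and of *Ikzf1*, which encodes the transcription factor Ikaros, which were picked after their values were seen. Each is given on the + strand of mm9 (NCBIM37), up to its first 300 bases, with the DpnII site GATC in capitals, at chr11:51419028-51419327, chr11:102223238-102223537 and chr11:11587735-11588034.
Hnrnpab: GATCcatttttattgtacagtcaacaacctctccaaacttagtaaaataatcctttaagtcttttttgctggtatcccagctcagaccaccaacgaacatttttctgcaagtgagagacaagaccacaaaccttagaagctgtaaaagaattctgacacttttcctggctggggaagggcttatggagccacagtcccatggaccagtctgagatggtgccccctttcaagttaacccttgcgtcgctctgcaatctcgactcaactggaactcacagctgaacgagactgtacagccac
Slc4a1: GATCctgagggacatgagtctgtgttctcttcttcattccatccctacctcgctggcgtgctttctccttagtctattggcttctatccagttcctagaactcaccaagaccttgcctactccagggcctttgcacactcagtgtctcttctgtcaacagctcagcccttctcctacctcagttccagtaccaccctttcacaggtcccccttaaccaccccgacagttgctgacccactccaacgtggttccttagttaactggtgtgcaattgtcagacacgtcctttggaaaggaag
Ikzf1: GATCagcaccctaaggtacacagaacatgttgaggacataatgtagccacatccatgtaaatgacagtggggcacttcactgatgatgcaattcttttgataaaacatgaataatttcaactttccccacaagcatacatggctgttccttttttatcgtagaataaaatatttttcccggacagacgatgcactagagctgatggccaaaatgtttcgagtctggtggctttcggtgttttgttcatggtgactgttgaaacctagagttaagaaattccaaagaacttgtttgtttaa
Even these fragments carried few counts. The *Hnrnpab* fragment, 557 bp long, had 7, 15 and 18 counts in the 3 WT samples of experiment 1 over all 4 viewpoints, which is 0.400% of its bin. The *Slc4a1* fragment had 2, 4 and 4, among 163 counts spread over 38 fragments of the gene. The *Ikzf1* fragment had 7, 10 and 7, among 1140 counts over 161 fragments of the gene. The long-range signal thus came from many fragments with few counts each. In the other 2 of these 3 bins, the most contacted fragments, in *Csnk1d* and *Fn3k*, had 6 counts each.

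A large part of the contacts of the α-globin locus along its own chromosome was long-range. From *Hba-a1/2*, 33.6, 36.1 and 36.5% of the chr11 counts of the 3 WT samples of experiment 1 were on members (mean 35.4% ± 1.57, SD, n = 3), with 11.8% upstream and 23.6% downstream. The share was 33.1% ± 0.880 from HS-38, 35.5% ± 1.81 from R1 and 35.3% ± 1.89 from R2. In the WT samples of experiment 2 it was 28.9, 31.5 and 29.1% (mean 29.8% ± 1.44), below all 3 values of experiment 1.

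The fall with distance was shallow and far from smooth. In the WT samples of experiment 1, the slope of the log count density of *Hba-a1/2* on log distance was -0.41 ± 0.02 (SD, n = 3), steeper over the upstream arm (-0.51) than over the downstream arm (-0.36). It was -0.46 ± 0.03 from HS-38, -0.42 ± 0.02 from R1, -0.39 ± 0.03 from R2 and -0.36 ± 0.05 from *Hba-a1/2* in experiment 2. Scaled to 100000 counts in cis, the density of *Hba-a1/2* counts per Mb was 632 ± 38.5 at 1 to 5 Mb, 269 at 5 to 10 Mb, 384 at 10 to 20 Mb, 459 at 20 to 40 Mb, 213 ± 5.88 at 40 to 60 Mb and 80.7 ± 4.27 at 60 to 90 Mb. It therefore did not fall between 5 and 40 Mb. Within each of these distance classes, bins differed by 10.2-fold or more.

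Both arms had a different course near the locus. At 1 to 5 Mb the density was 901 ± 20.8 upstream and 363 ± 58.9 downstream, and at 5 to 10 Mb it was 408 upstream and 130 ± 18.9 downstream. At 10 to 20 Mb the order was the opposite, with 225 upstream and 542 downstream. The downstream arm thus passed through a trough of low contact before it reached a stretch of higher contact, which the plot of density against distance shows.

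**Figure D1:**
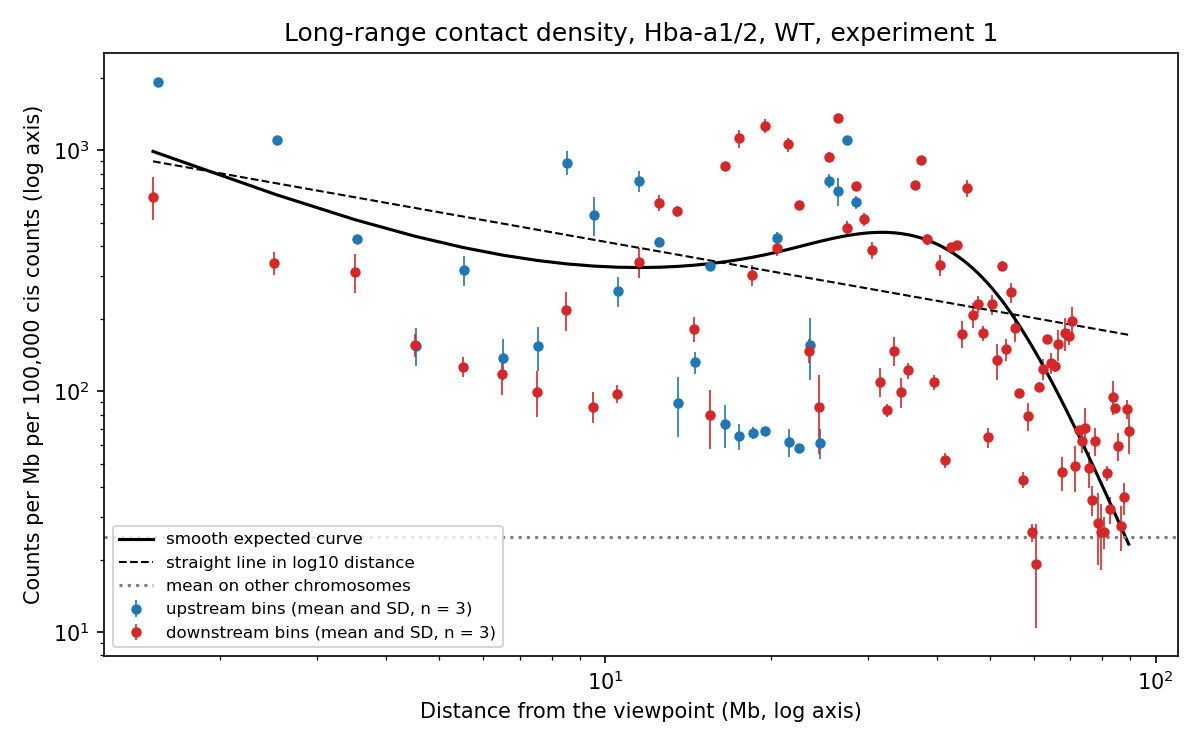
Counts per Mb per 100,000 cis counts (log axis) of 117 bins against their distance from the viewpoint in Mb (log axis), for Hba-a1/2 in the 3 WT samples of experiment 1; points are means and bars SDs, blue upstream and red downstream, the solid line is the smooth curve used as the expected value and the dashed line a straight line. Bins at the same distance differ by more than 10-fold, and beyond about 60 Mb the smooth curve lies well below the straight line.

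On average, contacts at the distal end of the chromosome stayed above the mean level of other chromosomes. Over the last 11 bins, chr11:111200001-121843856, the density from *Hba-a1/2* was 53.0, 55.1 and 50.1 in the WT samples of experiment 1 (52.8 ± 2.51), whereas counts on 17 other chromosomes averaged 24.8 ± 2.72 per Mb on the same scale. From HS-38 both values were lower, at 35.3 ± 2.99 and 15.8 ± 1.94. From R1 they were 46.8 ± 5.74 and 21.7, and from R2 59.9 ± 2.00 and 25.4. HS-38 thus had the lowest density at the distal end in each of the 3 libraries, although at 1 to 5 Mb its density, 635, differed little from the 632 of *Hba-a1/2*. The viewpoints share libraries and this order was not tested. Single bins did fall under the mean level of other chromosomes. At 60 to 90 Mb the lowest bin had 19.2 from *Hba-a1/2*, 13.7 from HS-38, 13.8 from R1 and 18.9 from R2.

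To find bins with more or fewer contacts than their distance predicts, counts in each bin were compared with a smooth curve of count density on distance, fitted to all bins of a sample. Of 117 bins, 40 (34.2%) were above the curve and 58 (49.6%) below it from *Hba-a1/2* in the WT samples of experiment 1 (edgeR quasi-likelihood test, Benjamini-Hochberg adjusted p under 0.01). From HS-38, 39 were above (33.3%) and 52 below (44.4%). From R1 the counts were 36 (30.8%) and 53 (45.3%), and from R2 38 (32.5%) and 54 (46.2%). In total 34 bins (29.1%) were above and 48 (41.0%) below from all 4 viewpoints. Most of the chromosome thus departed from the curve on the same side from each viewpoint. From at least 1 viewpoint 43 bins were above and 59 below, 1 of them above from one and below from another. From none were 16 bins called. The values, log2 of observed over expected, had Pearson correlations of 0.982 to 0.995 between viewpoints over the 117 bins, which is a description because the viewpoints share libraries.

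**Figure D2:**
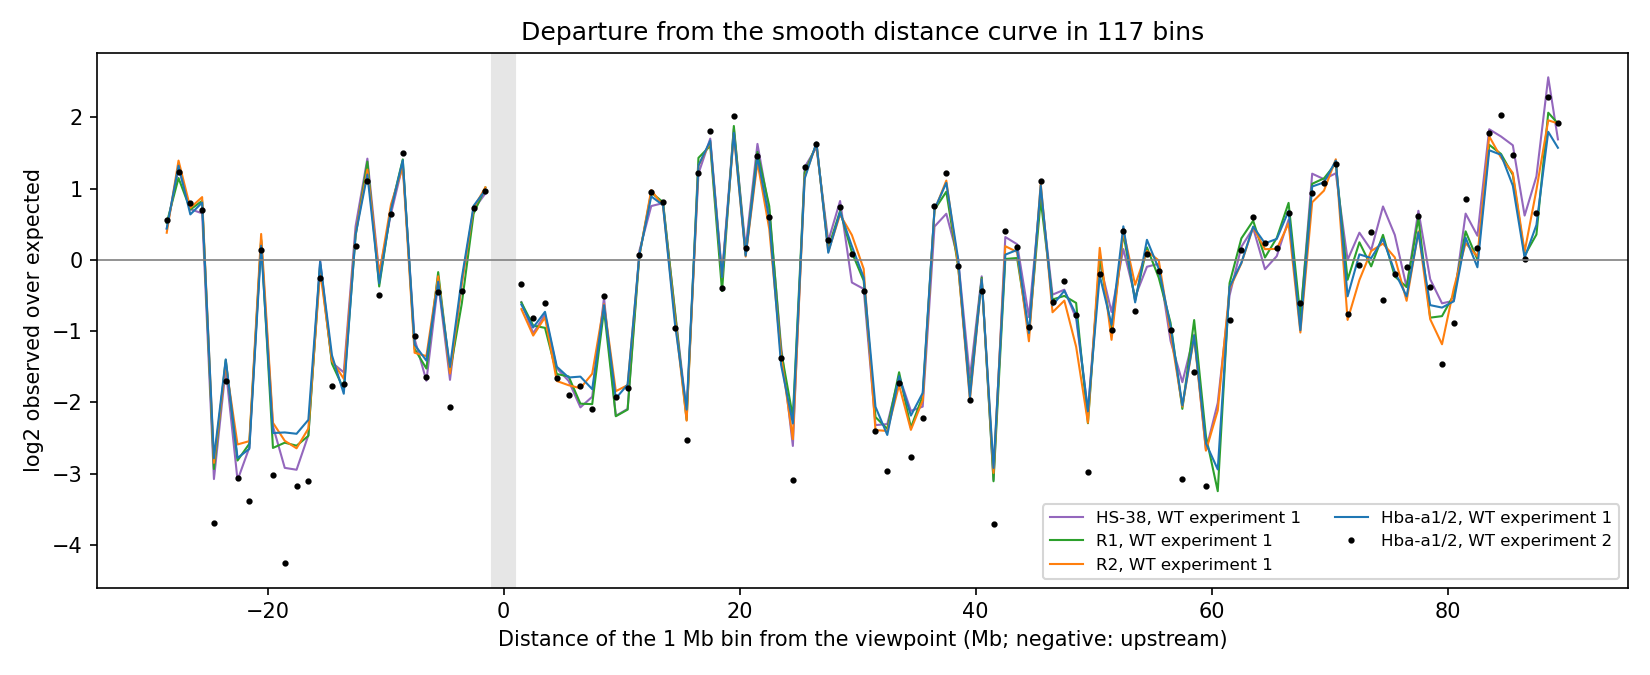
Log2 of observed over expected counts in 117 bins of 1 Mb against their distance from the viewpoint in Mb (negative upstream), as means over 3 WT samples; lines are the 4 viewpoints of experiment 1, black points Hba-a1/2 of experiment 2, and the grey strip is the excluded locus. The 4 lines and the points follow the same peaks and troughs, and the positive values at the far right, beyond 80 Mb, turn negative against a straight line (to -1.03 for the highest bin).

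The separate mice of experiment 2 gave the same map at lower depth. From *Hba-a1/2*, 30 bins were above (25.6%) and 40 below (34.2%), and all of them had been called on the same side in experiment 1, where they made up 75% of the bins above and 69.0% of those below. The bins called only in experiment 1 also lay on the same side, so that 40 of 40 and 58 of 58 did, 33 and 53 of them in each of the 3 samples. The correlation of log2 observed over expected between both experiments was 0.982 (Spearman's rho 0.985, 117 bins) and the mean absolute difference was 0.26.

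**Figure D3:**
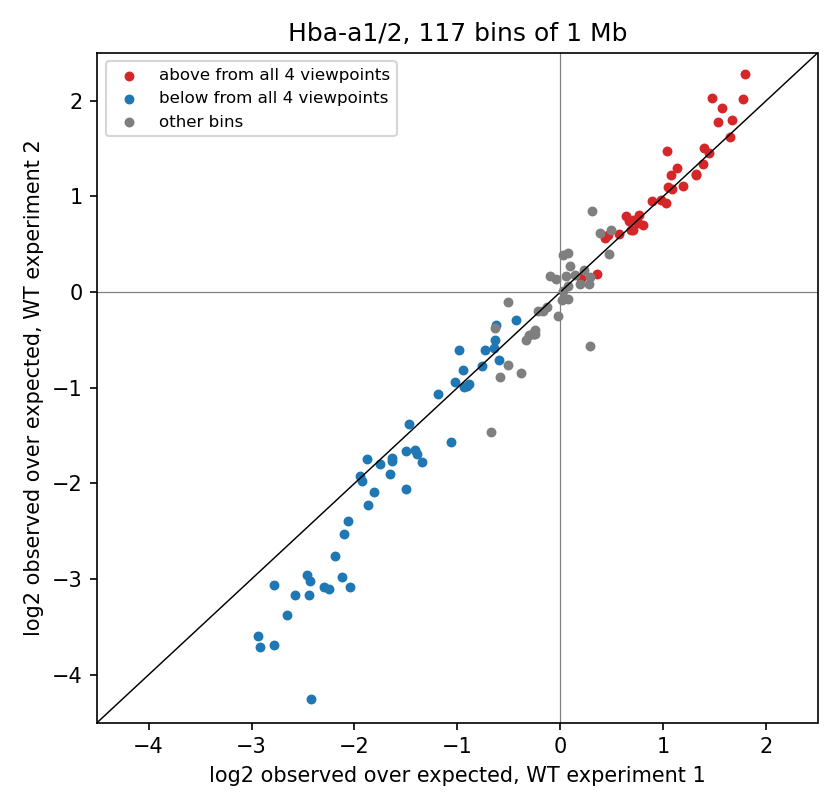
Log2 of observed over expected counts from Hba-a1/2 in 117 bins of 1 Mb in the WT samples of experiment 1 (horizontal) and experiment 2 (vertical), each a mean of 3 samples; red bins were above and blue bins below the curve from all 4 viewpoints of experiment 1, and the line marks equal values. Most bins lie along the line, and the lowest bins lie under it.

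How far a bin counts as above depends on the curve. Against a straight line in log distance, 26 of the 40 bins above from *Hba-a1/2* were still above and 9 were below, all of the latter 65.5 to 89.3 Mb away, while 53 of the 58 bins below were still below and 2 were above. With the counts from viewpoints on chromosomes 7 and 14 in place of sequence length as a measure of how visible a bin is, 26 were still above and 48 still below, while 3 bins above turned below, 29.5 to 54.5 Mb away, and 2 below turned above. In experiment 2, 16 of 30 and 18 of 40 calls were kept with that measure. With the number of DpnII fragments in place of length, 40 and 57 were. Beyond about 60 Mb the smooth curve lies below the straight line, so that a bin there can be above one and below the other.

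The bins above and below formed blocks along the chromosome. The 34 bins above from all 4 viewpoints made up 18 runs, with 28 of them in runs of 2 or more, and the 48 bins below made up 17 runs, with 42 in runs of 2 or more. The longest run below covered 10 bins, chr11:33200001-43200000, directly downstream of the locus, with 26 coding genes and a mean log2 of -1.40, and its first 2 bins were above when each arm had its own curve. Far lower values were found upstream at chr11:7150001-11150000 (8 coding genes, -2.44) and chr11:12150001-16150000 (2 coding genes, -2.52). The single bin between these runs holds *Ikzf1*. The longest run above, chr11:3150001-7150000 near the centromeric end, had 82 coding genes and a mean of 0.80, and its first bin was below when each arm had its own curve. The 3 bins of chr11:100200001-103200000 held 109 coding genes (1.15), and none of the 3 was called against the straight line (-0.13, -0.17 and 0.06 from *Hba-a1/2*).

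Bins above the curve were gene-rich and GC-rich, which the rule did not use. The median number of coding genes was 20.5 in the 34 bins above, 3.5 in the 48 below and 10 in all 117, and the median GC content was 46.5, 40.8 and 44.1%. No bin above lacked a coding gene, while 10 of the 48 below did. Over the 117 bins, log2 observed over expected from *Hba-a1/2* had a Spearman's rho of 0.687 with the number of coding genes, 0.616 with GC content and -0.08 with the number of DpnII fragments. With the counts that viewpoints on chromosomes 7 and 14 placed on the same bins, rho was 0.780. The part of gene content, base composition and visibility in these values was not tested apart.

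Gene number alone did not give the side of the curve. The bin at chr11:99200001-100200000, which holds 81 coding genes, 45 of them of the type I keratin cluster, was below (-0.91, but not called with visibility from other chromosomes), and so was chr11:73200001-74200000, with 29 coding genes and a cluster of 27 listed olfactory receptor genes (-3.02). In contrast, chr11:44200001-45200000, with 4 coding genes, was above (0.89). Many of its counts lay near 1 gene: the 100 kb window chr11:44300001-44400000, in which *Rnf145*, a membrane-bound ubiquitin ligase gene, is the only coding gene, had 1302 of the 2612 counts of the bin (49.8%) from *Hba-a1/2* in experiment 1 and a mean log2 over 4 viewpoints of 3.19, with 3.34 from *Hba-a1/2* in experiment 2.

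The 10 bins furthest above, by the mean over 4 viewpoints, lay 8.54 to 89.3 Mb away. The bin at chr11:51200001-52200000, 19.5 Mb away, which holds the *Hnrnpab* fragment shown above, had 1172, 1344 and 1279 counts per Mb per 100000 from *Hba-a1/2* (mean 1265 ± 86.9) against an expected 369, with a mean log2 of 1.81 (adjusted p of edgeR's quasi-likelihood test for *Hba-a1/2* 1.47e-141). That is more than the mean at 1 to 5 Mb over both arms, 632. The bin at chr11:58200001-59200000 with *Trim58*, a ubiquitin ligase gene of late erythroblasts, had 1351, 1352 and 1386 (1363 ± 20.1, log2 1.62). The bin at chr11:49200001-50200000, where an exon of the autophagy receptor gene *Sqstm1* was hit most, had 1013, 1189 and 1160 (1121 ± 94.3, log2 1.66). These 3 bins were above against the straight line as well, at 1.99, 2.28 and 1.75 from *Hba-a1/2*. With visibility from other chromosomes they were lower, at 1.01, 0.65 and 0.88, against 1.78, 1.65 and 1.67 with sequence length.

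Upstream, the bin at chr11:23150001-24150000 with *Bcl11a*, the repressor of embryonic and fetal globin genes, had 774, 943 and 953 (890 ± 101, log2 1.36). The bin at chr11:53200001-54200000 with the interleukin genes *Il3*, *Il4*, *Il5* and *Il13* and *Csf2* had 981, 1070 and 1124 (log2 1.49), and it is also rich in other genes, 27 coding genes in all. At chr11:102200001-103200000, 70.5 Mb away, with *Slc4a1*, *Rundc3a* and *Slc25a39*, the density was 219, 203 and 166 (196 ± 27.2, log2 1.34), yet the bin was not called against the straight line (0.06). The other 4 bins, all beyond 80 Mb, were above the smooth curve but below the straight line. They include chr11:120200001-121200000 with *Mafg* and *Actg1*, at 91.2, 85.1 and 76.6 (log2 2.09 against the curve and -1.03 against the line for *Hba-a1/2*), and chr11:116200001-117200000 with *Sphk1* and *Ube2o* (1.53 and -1.05).

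The 5 lowest bins by the mean over 4 viewpoints were below under each curve and measure of visibility, by amounts that differed. At chr11:73200001-74200000, 41.5 Mb away, *Hba-a1/2* had 55.2, 52.2 and 48.0 counts per Mb per 100000 (51.8 ± 3.60) against an expected 392. The other 4 lay upstream, started at 7150001, 9150001, 13150001 and 14150001, held 0 coding genes and had mean log2 values of -2.91, -2.82, -2.61 and -2.66. These 4 bins, 17.5 to 24.5 Mb upstream, thus had 6.11-fold to 7.51-fold fewer contacts than the curve gave, as means over 4 viewpoints. From *Hba-a1/2* alone these 4 bins were 5.35-fold to 6.88-fold under the smooth curve, 3.30-fold to 4.68-fold under a curve for each arm and 2.64-fold to 4.04-fold under it with visibility from other chromosomes. The lowest bin from *Hba-a1/2* alone was another one, chr11:92200001-93200000 (-2.94).

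From a list of 12 on the chromosome, chosen with earlier results of these data known, genes of erythroid cells were then looked up. Their 8 bins were above the curve from each of the 4 viewpoints in experiment 1, where 30.8 to 34.2% of all bins were, and 7 of the 8 in experiment 2, against 25.6% of all bins, where the exception was the bin of *Ikzf1*. The median log2 from *Hba-a1/2* was 1.39, against -0.24 over all 117 bins, but 4 of the 8 bins were above against the straight line and 5 of the 8 with visibility from other chromosomes as the measure. For 15 housekeeping genes in 12 bins, such as ribosomal protein genes, 9 bins were above from *Hba-a1/2* (median 0.88), against 34.2% of all bins, and 5 against the straight line. The shares of all bins given here are those of the smooth curve. The counts against the straight line and with visibility stand without such a share.

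Windows of 100 kb centred on each gene gave a sharper view. Over 1164 windows tiled along the members, log2 observed over expected from *Hba-a1/2* in experiment 1 had a median of -0.87 and reached from -2.93 at the 5th to 1.82 at the 95th percentile. The windows of the 12 erythroid genes had a median of 2.61, and 11 were above 0 and 8 above 2, a value that 4.04% of the tiled windows exceeded. The 15 housekeeping windows had a median of 1.05, and 14 were above 0 and 0 above 2. Windows of neighbouring genes overlap (*Slc4a1*, *Rundc3a* and *Slc25a39*, *Sphk1* and *Ube2o*, *Stat5a* and *Stat5b*), so they are fewer independent regions than genes. Against the straight line, the erythroid median was 1.42 with 8 of 12 above 0, and 7 of the 15 housekeeping windows were above 0. The median and percentiles of the tiled windows are those of the smooth curve. No such values are given here against the straight line, so these counts have no background beside them.

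A comparison that uses no distance curve put each erythroid gene, *Alox15* (1.10-fold) included, above its surroundings in experiment 1. The density of the window was divided by the median of all tiled windows within 5 Mb. From *Hba-a1/2*, 12 of 12 erythroid windows were over that median, by 7.45-fold at the median, and 15 of 15 housekeeping windows were, by 2.05-fold. In experiment 2, 11 of 12 and 13 of 15 were.

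Among the genes of red cell structure and metabolism, *Slc4a1* had 140, 136 and 124 counts in its window, that is 1030, 877 and 888 counts per Mb per 100000 (932 ± 85.0, n = 3), 11.2-fold over its surroundings and higher than each of 100 windows within 5 Mb. Its log2 was 3.64 ± 0.12 against the smooth curve and 2.30 against the straight line. The window chr11:102168827-102268826 belongs to the bin 70.5 Mb from the locus. Its density exceeded the mean of the 1 Mb bins at 1 to 5 Mb over both arms, 632. It was close to the mean of the upstream bins at that distance, 901, and under the highest of them, 1919. The signal was spread over 125 fragments, and without the fragment with the most counts the log2 was 3.61. *Rundc3a*, a gene next to *Slc4a1*, and *Slc25a39*, a mitochondrial carrier gene, lie in overlapping windows with 3.55 and 3.47. In experiment 2 the *Slc4a1* window had 8, 37 and 12 counts, a log2 of 3.20 ± 0.87.

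*Slc4a1* also differed between viewpoints. Its density was 429, 181 and 254 from HS-38, 638, 544 and 595 from R1 and 1392, 848 and 742 from R2. In each library HS-38 was the lowest and *Hba-a1/2* was above R1. From the viewpoints on chromosomes 7 and 14 the same window had a log2 of 3.16 ± 0.28 against a uniform density, so it was high from loci on other chromosomes too.

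*Ube2o*, which encodes an enzyme that clears ribosomes and other proteins from reticulocytes, and its neighbour *Sphk1*, a sphingosine kinase gene of red cells, had log2 values of 3.30 ± 0.12 and 3.18 ± 0.06 and were 7.78-fold and 7.11-fold over their surroundings. Against the straight line they were 0.79 and 0.66. *Trim58* had 221, 262 and 264 counts, a log2 of 1.99 ± 0.06 and 2.63 against the straight line, but its surroundings were also high and it was 3.99-fold over them. *Alox15*, the lipoxygenase gene of reticulocytes, was the exception in the list, with 23, 27 and 28 counts and a log2 of -1.26 ± 0.11, although its bin was above.

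Among the transcription factor genes, *Ikzf1* and *Bcl11a* had the highest densities. The *Ikzf1* window had 225, 275 and 251 counts, or 1655, 1773 and 1798 per Mb per 100000 (1742 ± 76.6), in a gene-poor stretch where it was 23.7-fold over the windows within 5 Mb. Its log2 was 2.20 ± 0.03, while its whole 1 Mb bin had only 0.20, so the counts were concentrated in a small part of the bin. The *Bcl11a* window had 233, 252 and 315 counts, or 1713, 1625 and 2256, 9.46-fold over its surroundings. From viewpoints on chromosomes 7 and 14 the *Ikzf1* and *Bcl11a* windows had 0.22 and 0.66, lower than the median of 1.89 of the 12 windows from those viewpoints. *Mafg*, a small Maf partner of NF-E2, had 42, 15 and 21 counts (2.77 ± 0.84), and -0.06 against the straight line. *Stat5a* and *Stat5b*, which act downstream of the erythropoietin receptor, had 0.60 ± 0.41 and 0.62 ± 0.43, and were negative against the straight line.

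**Figure D4:**
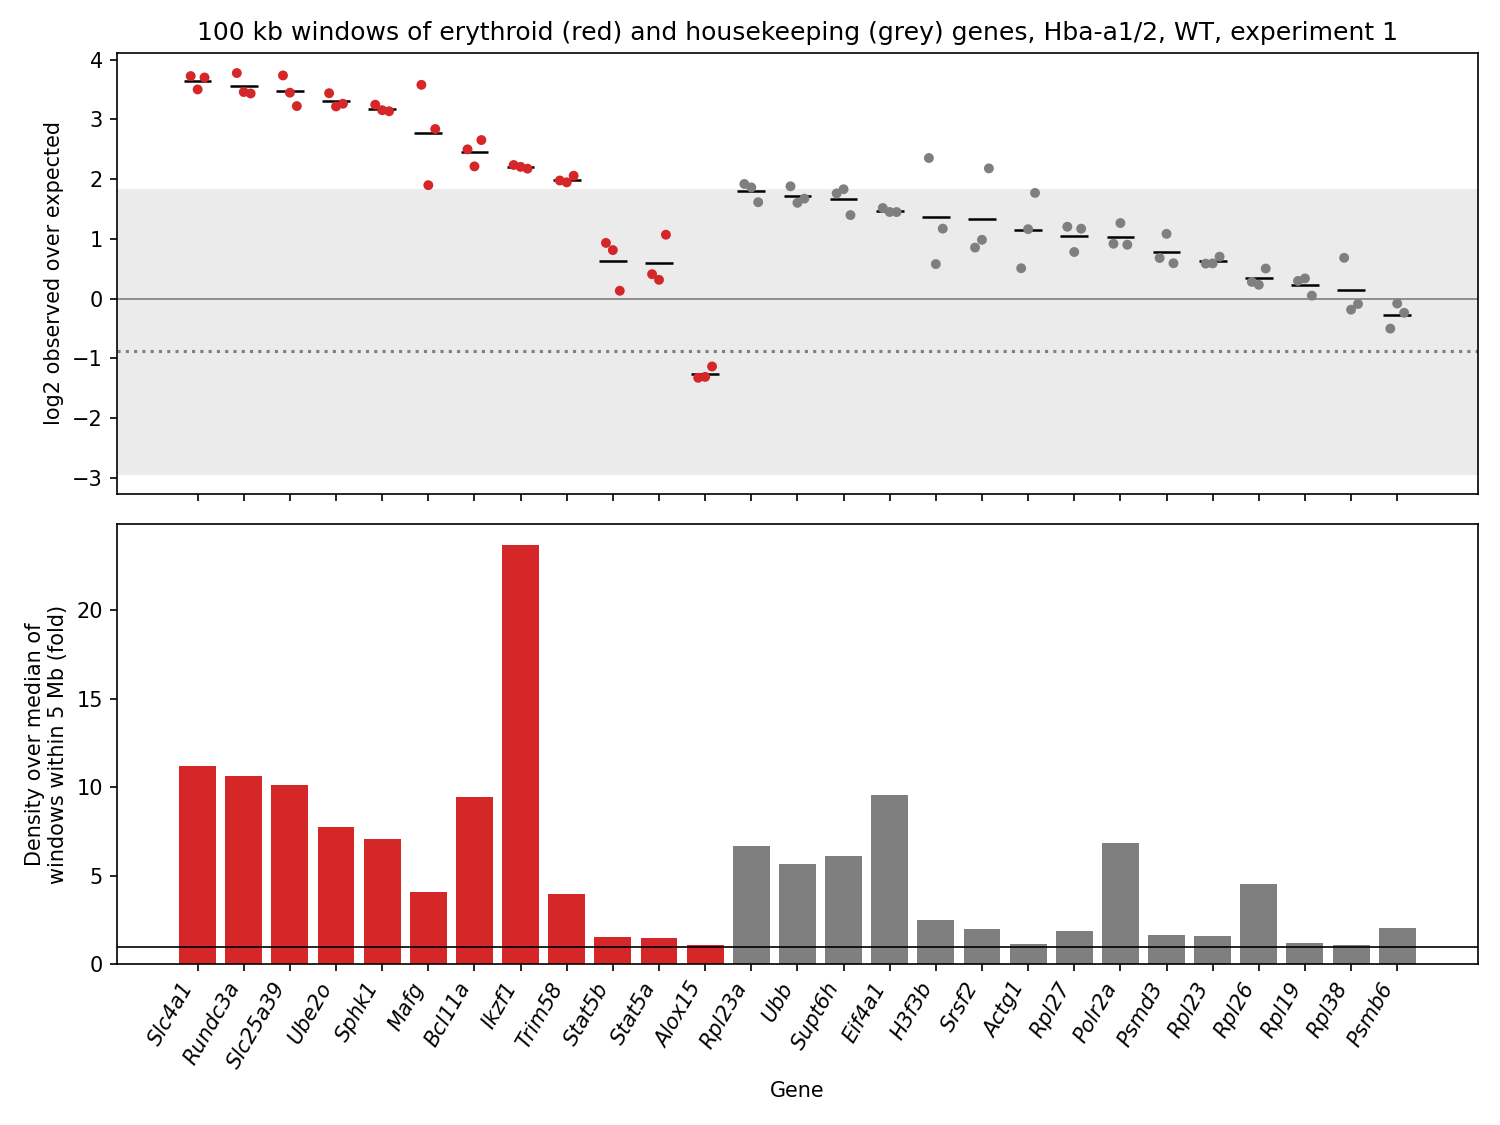
Top, log2 of observed over expected counts from Hba-a1/2 in 100 kb windows centred on 12 erythroid (red) and 15 housekeeping (grey) genes, one point per WT sample of experiment 1 with the mean as a line; the dotted line and grey band are the median and the 5th to 95th percentile of 1164 tiled windows. Bottom, the density of each window over the median of tiled windows within 5 Mb, as a fold with 1 as a black line; 9 erythroid windows exceed the band in the top panel, and Ikzf1 has the highest local fold, 23.7. Of the erythroid values above 0, those of Mafg, Stat5a and Stat5b turn negative against a straight line. Of the 15 housekeeping windows, 14 are above 0 against the smooth curve and 7 against the straight line.

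Against the smooth curve, the tiled windows gave the same leading region without a gene list. Among 765 windows with at least 10 counts from each of the 4 viewpoints, the highest mean log2, 3.33, was at chr11:102200001-102300000 with *Slc4a1*, *Rundc3a*, *Slc25a39*, *Grn* and *Fam171a2*, and it was 3.46 from *Hba-a1/2* in experiment 2. The *Rnf145* window was next. It was followed by chr11:58700001-58800000 with *Trim11*, *Trim17*, *Rnf187* and core histone genes (3.13), and by chr11:48600001-48700000 with *Gnb2l1*, which encodes a protein of the small ribosomal subunit (2.99). Against the straight line the order changed: the window with *Trim11* was highest (3.80), followed by that with *Gnb2l1* (3.03), the *Rnf145* window had 2.98, and the *Slc4a1* window had 1.83 and was 67th. These windows were picked by their values, so the values are a description.

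Within bins, counts concentrated near gene starts. Counts within 5 kb of the 1626 coding gene starts among the members, 12.1% of the sequence, were compared with the mean density of their own bins. From *Hba-a1/2* the ratio was 1.69 ± 0.01 in the WT samples of experiment 1 and 1.81 ± 0.07 in those of experiment 2. It was 1.62 ± 0.02 in bins above and 2.12 ± 0.18 in bins below from all 4 viewpoints, so gene starts stood out within bins of low contact too. From HS-38 the ratio was 1.52 ± 0.01. From the viewpoints on chromosomes 7 and 14 it was 1.42 ± 0.06 in the WT samples of experiment 1 and 1.67 ± 0.06 in those of experiment 2. Gene bodies made up 47.5% of the sequence and held 59.5 to 62.0% of the counts.

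The bins of 6 lists of genes known from other tissues (*Hoxb*, chemokine, cytokine, muscle myosin, olfactory receptor and type I keratin genes) lay on both sides of the curve. Of their 17 bins, 7 were above and 7 below from *Hba-a1/2* in the WT samples of experiment 1, against 34.2% and 49.6% of all bins. Some of the clusters were low together with their bins. The chemokine gene cluster at chr11:81849073-82119192 with *Ccl2* and *Ccl7* had -2.06 ± 0.11, and the skeletal muscle myosin cluster at chr11:66891802-67185088 had -2.05 ± 0.20, each in a bin below.

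Inside bins above the curve, such clusters mostly had lower values than the rest of their bin. The *Hoxb* genes from *Hoxb13* to *Hoxb3* had 3, 4 and 8 counts and a log2 of -2.42 ± 0.82, while the rest of their bin had 0.66 ± 0.10. The 10 olfactory receptor genes at chr11:49243929-49378362 had -0.91 ± 0.25, and the rest of their bin, with *Sqstm1*, had 1.85 ± 0.04. The keratin genes at the end of the bin that starts at 98200001 had -0.45, with 0.76 in the rest, although that bin was below against the straight line. A group of 20 olfactory receptor genes around *Trim58*, chr11:58268417-58655544, was above but lower than its surroundings, at 1.05 ± 0.03 against 1.93. The exception was the group of 9 at chr11:48792391-49154971, with 1.82 ± 0.09 against 0.94 in the rest of its bin. In experiment 2 that group had 1.51 ± 0.34, also over the rest of its bin.

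The deletions addressed whether CTCF sites downstream of the genes or beside the θ-globin genes affect how the locus meets the rest of its chromosome. No difference in the long-range share could reach a p below 0.1 in the two-sided exact permutation test of 3 against 3 samples. From *Hba-a1/2* the share was 42.2, 39.4 and 36.4% in ∆44/48 and 33.6, 36.1 and 36.5% in WT, a difference of 3.92 percentage points (exact p = 0.2), and the groups overlapped. From HS-38, R1 and R2 the differences were 2.18, 3.66 and 3.81 points (exact permutation p = 0.4, 0.3 and 0.3). Without ∆44/48 replicate 1, the library that stood apart, they were 0.389, 1.65 and 2.44, and 2.48 from *Hba-a1/2*. Counted by distinct fragments in place of counts, all 4 differences turned negative, at -5.23, -4.04, -3.94 and -3.28 points. The direction of the share in ∆44/48 is therefore not settled.

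In ∆θ1 the share was 33.6, 36.2 and 33.3%, above each of the WT samples of its experiment, by 4.51 points (exact permutation p = 0.1, the smallest this design allows). The difference lay downstream, where ∆θ1 had 24.1, 25.9 and 25.4% and WT 20.6, 21.1 and 20.2%, while upstream it was 0.01 points. It turned to -18.8 points by distinct fragments, a measure that depends on depth, and the ∆θ1 libraries were the shallowest. The share ranged from 31.4 to 33.6% in ∆θ2 (2.83 points over WT, exact permutation p = 0.2) and 29.8, 29.0 and 28.8% in ∆θ1/θ2 (-0.61 points, exact permutation p = 0.6). The slopes with distance differed from WT by -0.05 to 0.12, with exact permutation p of 0.2 or more for each of the 7 comparisons.

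**Figure D5:**
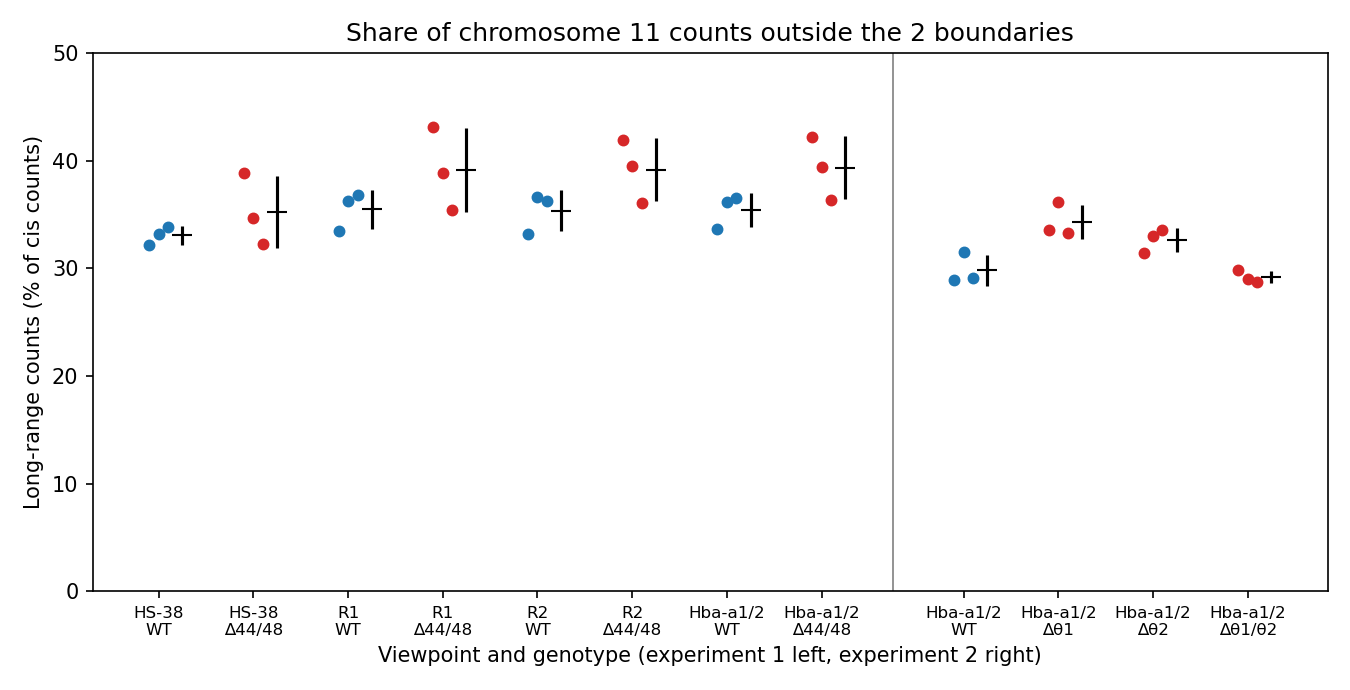
Long-range counts as a percentage of all chr11 counts of a viewpoint, one point per sample, blue WT and red deletion, with the mean and SD of 3 samples as a cross; experiment 1 is left of the line and experiment 2 right of it. The ∆θ1 samples lie above all WT samples of experiment 2, and the other groups overlap their WT samples; by distinct fragments the ∆44/48 and ∆θ1 differences have the opposite sign.

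No bin was called as changed in a deletion at an adjusted p under 0.01. For each of the 7 comparisons, edgeR's quasi-likelihood test called 0 of 117 bins (0%), and DESeq2 also called 0. At an unadjusted p under 0.05, edgeR gave 6, 11, 7 and 14 bins for HS-38, R1, R2 and *Hba-a1/2* in ∆44/48, 13 in ∆θ1, 8 in ∆θ2 and 0 in ∆θ1/θ2, and DESeq2 gave 2, 2, 2, 5, 9, 6 and 0. The median standard error of the log2 fold change was 0.19 for *Hba-a1/2* in ∆44/48, 0.36 in ∆θ2, 0.40 in ∆θ1/θ2 and 0.64 in ∆θ1. Small changes of single bins were thus not detectable, least of all in ∆θ1. The lowest adjusted p, 0.0336, was that of chr11:103200001-104200000 in ∆θ1 (log2 fold change 2.72, SE 0.74, edgeR quasi-likelihood test).

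The map of bins above and below was found in the deletions too. All 40 bins above and 58 below from *Hba-a1/2* in WT were on the same side in ∆44/48, and 39 of 40 and 58 of 58 in ∆θ2 and in ∆θ1/θ2. In ∆θ1 33 of 40 and 55 of 58 were. Across the 117 bins, log2 observed over expected in WT and deletion had correlations of 0.978 to 0.989 for ∆44/48, 0.976 for ∆θ2, 0.961 for ∆θ1/θ2 and 0.856 for ∆θ1, the group with the fewest counts. In ∆44/48 the log2 fold change from *Hba-a1/2* was positive in 103 of 117 bins with a median of 0.17, and the median was 0.26 in the bins below and 0.09 in the bins above from all 4 viewpoints. Without ∆44/48 replicate 1, the log2 fold change was positive in 80 of 117 bins with a median of 0.08, and 0.21 in the bins below and 0.06 in the bins above. From HS-38 the positive bins fell from 75 to 51 and the median turned from 0.07 to -0.02. The same 40 and 58 bins stayed on their side from *Hba-a1/2* without that library, and the correlations were 0.972 to 0.989.

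The windows of the erythroid genes were then compared between deletion and WT. *Slc4a1* had 1050, 961 and 805 counts per Mb per 100000 in ∆44/48 against 1030, 877 and 888 in WT (ratio 1.01, exact permutation p = 0.9). Over the 12 windows the ratio to WT ran from 0.644 to 1.28 in ∆44/48 and 0 of 12 had groups without overlap. Without ∆44/48 replicate 1 it ran from 0.748 to 1.30, and *Ikzf1* and *Sphk1* (1.30-fold, the highest ratio) had groups without overlap. In ∆θ2 and ∆θ1/θ2, 1 window each had groups without overlap, *Rundc3a* (1.40-fold) and *Ikzf1* (0.812-fold). In ∆θ1, 3 of 12 did: *Bcl11a* with 2, 2 and 0 counts (0.153-fold), *Slc4a1* with 5, 3 and 6 (2.93-fold) and *Rundc3a* with 5, 6 and 4 (2.59-fold). Each of these windows of experiment 2 rests on few counts and has an exact permutation p of 0.1. The ratios over the 12 windows ran from 0 to 3.39 in ∆θ1 (median 2.10), 0 to 1.55 in ∆θ2 and 0.648 to 2.94 in ∆θ1/θ2. The share of all tiled windows whose groups did not overlap is not given here, so these numbers of windows have no background. The 0% of bins called is another measure, the adjusted p of 1 Mb bins.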

How the data were processed

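Reads had been cut at DpnII sites in silico after trimming (Trim Galore) and merging (FLASH), and were mapped to mm9 by Bowtie. Without PCR duplicates, the authors deposited counts per viewpoint and DpnII fragment, with no normalisation. Fragments within 1 kb of a viewpoint were left out and counts were scaled to 100000 in cis. Each of the 151143 chr11 fragments listed matched a DpnII digest of NCBIM37, and genes came from GENCODE M1. The expected count of a bin came from a quasi-Poisson fit on a natural spline (3 df) of log10 distance, with bases of known sequence as offset. Bins with at least 10 counts were tested with edgeR 4.0.16 in R 4.3.3, Benjamini-Hochberg over all bins, adjusted p under 0.01, and DESeq2 1.42.0 was an alternative. Models were tested on simulated data. Figures were drawn with matplotlib 3.10.9, and other steps used scipy 1.17.1, pandas 2.3.3 and numpy 2.4.6 in Python 3.11.15.

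The members, gene lists and tests were chosen with earlier results of these data known. Named bins are the 10 highest and 5 lowest of those called from all 4 viewpoints, bins of listed genes and, in each deletion, up to 3 called bins. Counts per fragment differed between replicates by 1.54 to 5.62 chi-square per degree of freedom over 36 pairs, 0 of them identical. Replicate numbers did not pair the samples (correlations of same-numbered samples -0.36 to 0.13). PCR duplicates that differ in length cannot be told from separate molecules. The results of 1 gene list are not reported here.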

Additional observations from a re-analysis of the deposited data

How the results depend on the processing

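Of 614 recomputed values 564 kept their direction and side of the threshold, or moved by less than the limit set for them. By distinct fragments the share differences reversed, to -5.23, -4.04, -3.94 and -3.28 points in ∆44/48 (HS-38, R1, R2, *Hba-a1/2*) and -18.8 in ∆θ1. Leaving out each replicate in turn, the share differences ran from 0.389 to 3.68, 1.65 to 5.51, 2.44 to 5.36 and 2.48 to 5.41 in ∆44/48, 3.59 to 5.34 in ∆θ1, 2.38 to 3.67 in ∆θ2 and -1.07 to 0.219 in ∆θ1/θ2, positive there without WT replicate 2. Slope differences ran from -0.0401 to -0.0141, -0.0382 to 0.00391, -0.0481 to 0.00636 and -0.0423 to 0.00767 in ∆44/48, and from -0.0328 to 0.0196 in ∆θ1/θ2, where it was 0.0154 without bins within 5 Mb.

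With 59 bins of 2 Mb, bins above and below were 21 and 24 from HS-38, 24 and 25 from R2, 24 and 27 from *Hba-a1/2*, 18 and 22 in experiment 2, and 25 below from R1. In experiment 2, 66 bins were below against a straight line, 22 with visibility from other chromosomes and 23 to 38 with a replicate left out, the lowest without WT replicate 1. In ∆θ1, 1 bin was called at a threshold of 0.05, by distinct fragments, from *Hba-a1* alone and without ∆θ1 replicate 3 (0 to 1 with a replicate left out). Bins of erythroid genes above were 4 against the straight line and 5 by visibility, and 4 and 3 in experiment 2. Those of housekeeping genes were 5 and 5, and 2 by visibility in experiment 2. Bins of tissue-restricted genes below in experiment 2 were 3 by visibility, and 3 to 6 with a replicate left out. Against the straight line, added after seeing the data, 7 of 15 housekeeping windows were above. The 4 bins beyond 80 Mb reversed to -1.03, -1.31, -0.89 and -1.05, and that of *Slc4a1* fell to 0.06. The cause was not tested. With replicate numbers as a block, share differences were the same (2.18, 3.66, 3.81, 3.92, 4.51, 2.83 and -0.61) and 0 bins were called. The depth of experiment 2, above all of ∆θ1, limits what could be seen there.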
